A study of Mus musculus with 8 samples.

Results

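The promoters of the ribosomal protein genes were followed through 2 h of nuclear Ikaros (IKZF1) in B3 cells, a mouse cell line from a lymphoma that resembles pre-B cells. Members were the protein-coding genes of the GENCODE M21 annotation (genome build GRCm38) whose symbol begins with Rpl or Rps and a digit, together with Rplp0, Rplp1, Rplp2 and Rpsa, without pseudogene copies and the Rps6k kinases. This gave 86 genes, 52 named for the large and 34 for the small subunit, on 19 chromosomes. Their promoter peaks were the ATAC-seq peaks with a summit within 1 kb of a transcription start site: 1036 of the 767727 peaks in 8 lists, in 165 of 174718 merged regions. Rps19bp1 fits the symbol rule but encodes a protein that binds Rps19 and is not part of the ribosome.

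Chromatin accessibility was measured by omni-ATAC-seq, in which the Tn5 transposase cuts open DNA, and the deposited lists hold peaks of short, nucleosome-free fragments. Every library came from B3 transduced with Ikaros-ERt2, delivered by a retrovirus with a GFP marker by which cells were sorted, so the controls carry the fusion too. Cells were untreated (0 h) or were collected 30 min, 1 h and 2 h after addition of 500 nM 4-hydroxytamoxifen (4-OHT), the drug that takes the fusion into the nucleus. Each of the 4 times has 2 libraries. Untreated cells received neither drug nor solvent as far as the labels say, so effects of these and of Ikaros cannot be told apart, and nothing in the labels says whether replicates were separate cultures.

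Ribosomal proteins clothe and fold the ribosomal RNA, and the large and small subunits need them in equal amounts, so their genes are among the most actively transcribed in growing cells. Their promoters lack a strong tissue preference and typically start at a C within a run of pyrimidines, the 5′ terminal oligopyrimidine tract, through which the mTOR pathway controls translation of these mRNAs. Ikaros is a zinc finger factor of lymphocyte development that binds a GGAA core, and pre-B cells stop dividing as its activity rises.

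Sequences of 4 promoters are shown to set those whose accessibility fell beside some whose accessibility did not. Each runs 5′ to 3′ on the strand of the gene, and capitals mark the Ikaros core words, which are GGAA or its complement TTCC and GGGA or its complement TCCC. Rpl7 (chr1:16104643-16104842, minus strand), Rpl27a (chr7:109518967-109519166, plus strand) and Rps6 (chr4:86857393-86857592, minus strand) are given from 180 bases upstream to 20 bases into the first exon, with the annotated start at base 181. Rpl15 (chr14:18271048-18271155, minus strand) starts at base 89, and the 108 bases hold the whole gap to the divergent gene Nkiras1 with 20 bases of the first exon on either side. The sequences are GRCm38 reference. These windows held 4 core words at Rpl15, 5 at Rpl7, 9 at Rpl27a and 5 at Rps6.
Rpl15: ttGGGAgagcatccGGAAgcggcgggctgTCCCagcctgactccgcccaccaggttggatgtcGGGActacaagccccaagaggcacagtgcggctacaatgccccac
Rpl7: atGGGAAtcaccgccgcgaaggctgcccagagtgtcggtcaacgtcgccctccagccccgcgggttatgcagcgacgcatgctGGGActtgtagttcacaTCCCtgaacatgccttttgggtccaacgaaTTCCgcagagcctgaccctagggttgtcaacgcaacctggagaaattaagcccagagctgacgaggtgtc
Rpl27a: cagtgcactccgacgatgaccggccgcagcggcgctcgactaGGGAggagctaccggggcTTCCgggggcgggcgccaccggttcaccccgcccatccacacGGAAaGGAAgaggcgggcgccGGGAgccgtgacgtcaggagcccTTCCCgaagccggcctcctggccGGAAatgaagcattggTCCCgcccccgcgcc
Rps6: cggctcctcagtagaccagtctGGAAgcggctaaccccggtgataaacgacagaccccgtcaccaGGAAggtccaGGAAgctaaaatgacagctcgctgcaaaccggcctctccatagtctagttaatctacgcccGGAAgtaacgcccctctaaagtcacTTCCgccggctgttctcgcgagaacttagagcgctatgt

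In these cells 82 of the 86 genes (95.3%) had a promoter peak in all 8 lists, against 10122 of 21938 protein-coding genes (46.1%). No gene had one in some lists only, so whether a gene had any peak within 1 kb did not change at any time. Single regions did come and go, and 64 of the 165 member regions were not in all 8 lists. The 4 genes without a peak in any list were Rpl3l, Rpl10l, Rpl39l and Rps27rt. Rpl3l is the muscle form of Rpl3, Rpl10l and Rpl39l are copies known from testis, and Rps27rt is a retrotransposed copy of Rps27. The parent genes Rpl3, Rpl10, Rpl39 and Rps27 had peaks in all 8 lists. Of the 9 members that are second copies or carry the name for another reason, 5 had a peak in every list: Rpl7l1, Rpl22l1, Rpl36al, Rps27l and Rps19bp1. Pseudogenes named after these genes were mostly closed, with a peak in all 8 lists at 8 of 294 and in none at 268, although reads from near-identical copies cannot always be placed.

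Strength was read as the percentile of a peak's fold (fragments at the summit over local background) within its own list, because the deposited values are not scaled between libraries. Each gene was represented by its main region, the region present in all 8 lists with the highest mean percentile. The 82 main regions had a median of 89.3, 71 lay above 75 and 38 above 90. Large subunit genes had a median of 89.0 (n = 49) and small subunit genes 89.6 (n = 33). The lists held 85903 to 103897 peaks with a median of 11 to 14 fragments at the summit, and the library background was 0.26 to 0.405 fragments per base. Local background was higher at promoter peaks in general, with library medians of 1.05 to 1.60 fragments per base against 0.42 to 0.67 over all peaks. At the members' peaks it was 1.21 to 1.89, and at the main regions 1.21 to 1.88.

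The strongest promoters are given by their mean over all 8 libraries, in which a promoter that fell ranks lower. Rps6, whose protein is the classic target of the S6 kinases, had the highest mean percentile of 99.1, from 97.5 in the second 30 min library to 99.8 in the first 2 h library. Rpl31, Rps29, Rps27 and Rpl36al followed with 98.6, 98.4, 97.7 and 97.6. Among the weakest were Rpl19 (36.6), Rpl36 (55.1), Rpl23 (64.1) and Rpl7 (65.8), of which Rpl7 and Rpl36 were stronger before 4-OHT, with mean percentiles of 83.6 and 67.5 at 0 h against 58.2 and 50.8 at 2 h. Rpl19 was low from the start, with 13 and 7 fragments in the untreated libraries, then 11 and 7 after 30 min, 12 and 15 after 1 h and 14 and 9 after 2 h. Replicate percentiles of a main region differed by a median of 2.18 points at 0 h and 1.92 at 2 h, so the order of the promoters named as strongest lies within the spread of replicates. The replicates of Rpl19 differed by 31.2 points at 30 min, so its place below Rpl36 is uncertain too.

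**Figure D1:**
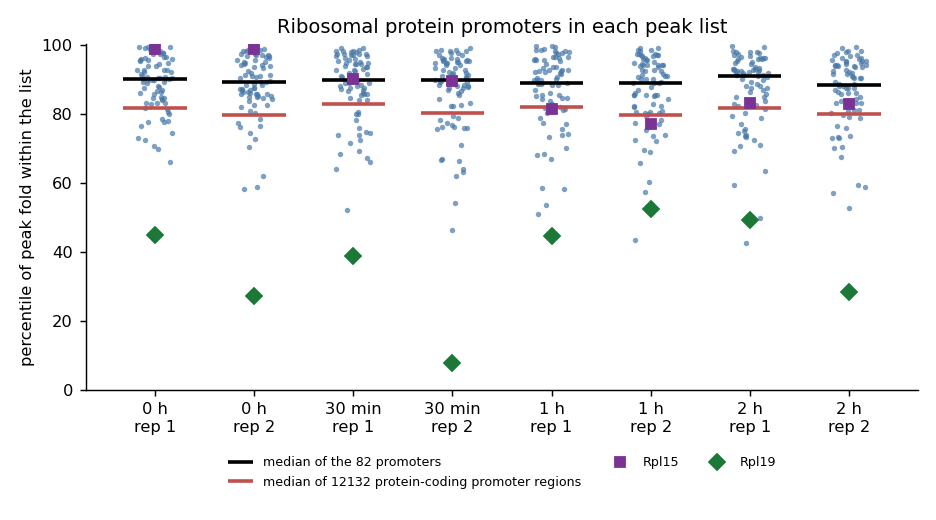
Percentile of the fold within the list (y axis) for the main regions of 81 ribosomal protein genes (points) in each of 8 libraries (x axis), with the median of all 82 (black bars) and of 12132 protein-coding promoter regions (red bars). The black bars stay between 88.2 and 90.8, while Rpl15 (squares) drops from 98.6 and 98.8 to 83.1 and 82.9.

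As a group the promoters barely moved within the lists. Their median percentile was 89.6 ± 0.632 (SD, n = 2 libraries) before 4-OHT, then 89.8 ± 0.175 after 30 min, 88.9 ± 0.000384 after 1 h and 89.5 ± 1.86 after 2 h. Over the same times the median of 12132 tested promoter regions was 80.5 ± 1.5 and 80.7 ± 1.09 at 0 h and 2 h, and that of all 47875 regions with a peak in every list went from 70.3 ± 1.76 to 74.7 ± 0.79. A main region is the strongest of its gene, whereas the promoter regions also include weaker additional ones. The sets are therefore unlike, here and in the later comparisons of main regions with promoter regions. From 0 h to 2 h, 53 of the 82 main regions moved by 5 points or less and 67 by 10 or less. Falls of over 10 points were seen at 13 and rises of over 10 at 2, Rpl27a and Rpl37a.

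**Figure D2:**
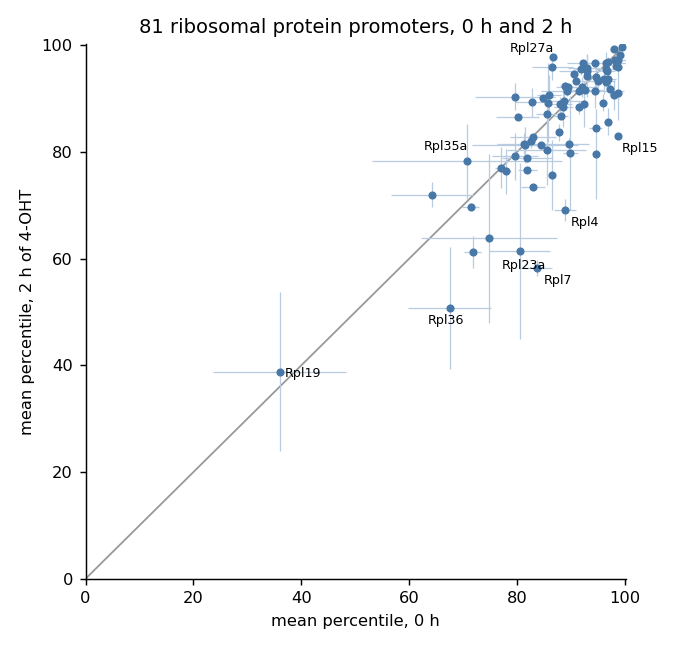
Mean percentile of 81 main regions at 0 h (x axis) and after 2 h of 4-OHT (y axis), with bars of 1 SD over 2 libraries and the line of equality. Most points lie near the line at the top right, and Rpl15 lies below it, at 98.7 and 83.0.

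To test change against replicate error, each library's folds over the regions shared by all 8 lists were replaced by their ranks, the ranks by normal scores, and limma was run on these. A shift is therefore a change in rank relative to other open regions, in SD units. Of the 101 member regions tested, the 82 main regions included, none was called at 30 min at an adjusted p of 0.01, where 0.0% of all tested regions were called either way. At the unadjusted p of 0.05, 7 were lower and 1 was higher at that time (all tested regions: 9.94% and 9.51%). At 1 h, 2 regions were lower and 0 higher (all tested regions: 2.51% lower, 1.1% higher), and at 2 h again 2 were lower and 0 higher (4.71% and 2.28%). The share of members called lower at 2 h, 1.98%, rests on 2 regions and was near that of protein-coding promoter regions (2.88%). At a limma adjusted p of 0.05 these shares were 8.91% and 9.22%. At an adjusted p of 0.05, 1 member region was lower and 0 higher at 30 min (all tested regions: 1.49% and 0.702%), 5 and 0 at 1 h (8.18% and 5.74%) and 9 and 0 at 2 h (11.1% and 8.34%). On the scale of fragments over library background, 4 were lower and 0 higher at an adjusted p of 0.01 at 1 h (all tested regions: 6.63% and 3.48%) and again 4 and 0 at 2 h (9.37% and 5.43%). The main region of Rpl15 was called at both 1 h and 2 h.

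Rpl15, a large subunit protein, fell from the top of the list. Its region (chr14:18270940-18271408, GRCm38) covers its own start and that of the divergent gene Nkiras1, so the signal of these genes cannot be told apart. The median summit lies at base 97 of the printed Rpl15 sequence, downstream of the start at base 89, in an untranslated exon. Untreated libraries had 102 and 74 fragments at the summit, against 51 and 41 after 30 min, 34 and 28 after 1 h and 34 and 32 after 2 h. Raw fragments are not scaled for depth, so overlap between times was read from fragments divided by the library background. On that scale most of the drop was present at 30 min, and no treated library reached the lower untreated one. The percentile went from 98.7 ± 0.149 to 89.7 ± 0.306, 79.2 ± 3.04 and 83.0 ± 0.159 over the same times. The shift was −1.14 (SE 0.247) at 30 min with a limma adjusted p of 0.0468, the only member under 0.05 at that time, and −1.76 and −1.59 at 1 h and 2 h (adjusted p = 0.00322 and 0.00299). On the scale of fragments over library background, centred on each library's median region, the log2 change at 2 h was −1.58 (SE 0.192, limma adjusted p = 0.00037). Local background there also went down, from 2.57 and 1.66 fragments per base in untreated cells to 1.26 and 1.21 after 2 h, and its part in the result was not tested. Without either library of 0 h or of 2 h the shift at 2 h was −1.63 to −1.51 and missed 0.01 (limma adjusted p from 0.018 to 0.0264), and without either library of 0 h or of 1 h that at 1 h missed it too (0.0208 to 0.0313).

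Several further large and small subunit genes were lower at 2 h without passing 0.01. Rpl7 had 43 and 35 fragments in untreated cells, with 21 and 25 after 30 min, 28 and 21 after 1 h and 24 and 19 after 2 h. All 6 treated libraries lay below both untreated ones, and the shift at 2 h was −1.18 (SE 0.306, limma adjusted p = 0.025). The main region of Rpl4 (chr9:64172769-64173074, GRCm38) lies 501 bp upstream of the Rpl4 start, over the first exon of the divergent gene Zwilch, and a peak at the Rpl4 start itself was present in 6 of the 8 lists. That region had 40 and 29 fragments in untreated cells, then 22 and 22, 21 and 18, and 19 and 18 at the successive times, with a shift at 2 h of −1.07 (SE 0.259, limma adjusted p = 0.0187). Again no treated library reached the lower untreated one. On the fragment scale Rpl4 and Rpl7 were called at 2 h as Rpl15 was, with log2 changes of −1.06 (SE 0.2, limma adjusted p = 0.00353) and −1.04 (SE 0.231, limma adjusted p = 0.00799). That scale uses the same 8 libraries. It called 4 of the 101 member regions lower at 2 h, against 9.37% of all tested regions. A weaker region 87.5 bp upstream of Rps25, beside its main one, was lower at 1 h with 26 and 16 fragments in untreated cells and 12 and 9 (shift −1.30, SE 0.355, limma adjusted p = 0.0377), and had 17 and 10 after 2 h.

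Rps27a, which encodes a fusion of ubiquitin with a small subunit protein, had a shift at 2 h of −1.04 (SE 0.272, limma adjusted p = 0.0251), and it had 69 and 51 fragments before 4-OHT and 45 and 31 after 2 h. Rpsa, the small subunit protein also known as the laminin receptor, went from 75 and 60 fragments to 50 and 37, with a shift of −1.02 (SE 0.291, adjusted p = 0.0349). For Rps26 the counts were 86 and 60 against 53 and 39, with a shift of −1.06 (SE 0.295, adjusted p = 0.0329). In all 3 genes both replicates at 2 h lay below both at 0 h, as at 42.7% of main regions and 29.8% of all tested regions. Rpl23a and Rpl36 had falls in percentile of 19.1 and 16.7 points, with shifts of −0.91 (SE 0.336) and −0.77 (SE 0.303) that did not pass (limma adjusted p = 0.0837 and 0.0997).

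**Figure D3:**
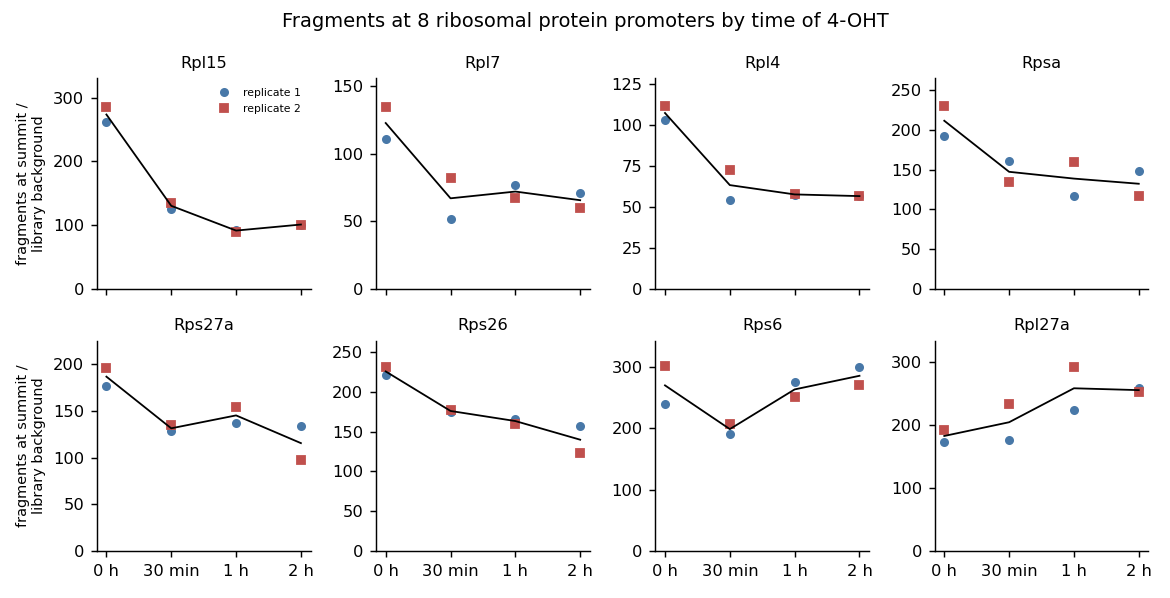
Fragments at the summit divided by the background of the library (y axis, from 0) for the main regions of 8 genes at 0 h, 30 min, 1 h and 2 h of 4-OHT (x axis), with circles for replicate 1, squares for replicate 2 and a line through the means. Rpl15, Rpl7 and Rpl4 are lower at each treated time than at 0 h in both replicates, while Rps6 at 2 h lies within the range of its replicates at 0 h.

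Rises were smaller. Rpl27a had 67 and 50 fragments before 4-OHT, 71 and 71 after 30 min, 82 and 91 after 1 h and 87 and 80 after 2 h. Both replicates of 2 h were higher than both of 0 h, as at 17.1% of main regions and 32.8% of all tested regions. The Rpl27a shift was 0.96 (SE 0.31, limma adjusted p = 0.054). On the fragment scale its log2 change was 0.34 (SE 0.213, limma adjusted p = 0.252). Rpl8 had 46 and 37 fragments before 4-OHT against 81 and 55 after 2 h, and a shift of 0.71 (SE 0.289, adjusted p = 0.112). Rpl37a, Rpl23 and Rpl35a completed the 5 largest rises in percentile, with shifts of 0.45, 0.09 and 0.10 and adjusted p of 0.397, 0.852 and 0.86, and none passed the test.

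Genes with known roles beside or outside the core of the ribosome were not called. The stalk proteins Rplp0, Rplp1 and Rplp2, which recruit elongation factors, had shifts at 2 h of −0.24, 0.09 and 0.25 (limma adjusted p from 0.553 to 0.868). Rpl5 and Rpl11, which bind 5S ribosomal RNA and restrain MDM2 when ribosome assembly fails, had shifts of −0.05 (SE 0.265) and −0.26 (SE 0.266). Those of Rps19 and Rps14, whose loss in people is tied to anaemia through Diamond-Blackfan anaemia and the 5q− syndrome, were −0.38 (SE 0.268) and 0.17 (SE 0.298). Rps6 had a shift of 0.08 (SE 0.279), Rps4x 0.11 (SE 0.342), Rpl13a 0.21 (SE 0.249) and Rps19bp1 0.16 (SE 0.289). With errors of this size, modest changes in either direction cannot be seen.

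The parents and second copies can be set side by side. Rpl22, whose loss impairs lymphocyte development, had 61 and 36 fragments before 4-OHT against 52 and 47 after 2 h (shift −0.12, SE 0.267). Its copy Rpl22l1 had 66 and 56 before it, 68 and 52 after 30 min, 50 and 49 after 1 h and 53 and 40 after 2 h (shift −0.90, SE 0.269, limma adjusted p = 0.041). Both treated values at 2 h were below both untreated ones in Rpl22l1, as at 42.7% of main regions and 29.8% of all tested regions. On the fragment scale its log2 change was −0.58 (SE 0.205, limma adjusted p = 0.0565). The difference between Rpl22 and Rpl22l1 was not tested. A further region in an intron of Rpl22l1, 540 bp into the gene, went the other way, with 20 and 10 fragments before 4-OHT against 36 and 27 after 2 h (shift 1.08, SE 0.359, adjusted p = 0.0604). Rps27 and Rps27l, a p53 target, had shifts of −0.15 and −0.20, Rpl36al one of −0.55, and Rpl3, Rpl10 and Rpl39 ones of 0.09, −0.28 and −0.24, all with limma adjusted p of 0.282 or more.

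Below the level of single calls, the members leaned downward. The median shift of the 82 main regions was −0.10, −0.21 and −0.19 after 30 min, 1 h and 2 h, against −0.03, −0.09 and −0.09 over protein-coding promoter regions and 0.03, 0.05 and 0.06 over all tested regions. At 2 h 58 of the 82 shifts were below 0 (70.7%), as were 57% of the promoter regions. Both libraries of 2 h ranked below both of 0 h at 35 main regions (42.7%) and above both at 14 (17.1%), where protein-coding promoter regions gave 35.5% and 22% and all tested regions 29.8% and 32.8%. Large and small subunit genes had the same lean, with medians of −0.18 and −0.20. When strength was instead the rank among all peaks of a list, the median at 2 h was −0.06. The genes are not replicates, all share the same 8 libraries, and no test of the group was made.

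**Figure D4:**
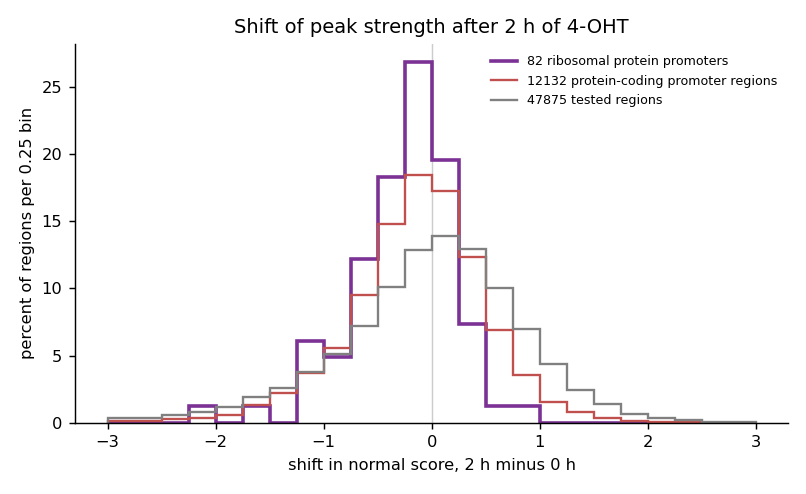
Percent of regions (y axis) by shift in normal score from 0 h to 2 h in bins of 0.25 (x axis) for the 82 ribosomal protein main regions, 12132 protein-coding promoter regions and 47875 tested regions. The ribosomal protein promoters lie mostly between −0.75 and 0.5, with Rpl15 at −1.59 and fewer rises than among all regions.

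Peaks that appeared or vanished were weak and additional to the main region. Of 109 member regions with a peak in both 0 h lists, 1 had none in either list of 30 min (all such regions: 10.9%), 2 at 1 h (14.6%) and 2 at 2 h, where the share was 1.83% against 16.6% of all such regions and 7.58% of promoter regions. The losses were a region 316 bp upstream of Rpl14, with 18 and 12 fragments in untreated cells, and one 889 bp upstream of Rpl10, with 22 and 11. Regions gained numbered 5 at 30 min (all regions: 10.3%), 9 at 1 h (17%) and 10 of 117 at 2 h, where the share was 8.55% against 20.5% of all and 7.98% of promoter regions. Among them was a peak 846 bp upstream of Rpl15, beyond the Nkiras1 start, with 9 and 13 fragments at 2 h. Another lay 24.5 bp downstream of an annotated start of Rps27a, beside the main region described above. It had 17 and 15 fragments at 30 min and 16 and 16 at 2 h. A region present in all lists 553 bp upstream of Rpl36al, in the first exon of the neighbouring gene Mgat2, had 26 and 17 fragments before 4-OHT against 11 and 10 after 2 h (shift −2.0, SE 0.438, limma adjusted p = 0.0121), while the main Rpl36al region kept a percentile of 98.7 ± 1.41 and 97.3 ± 0.978.

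The main regions were compact and mostly centred on the start site. Their median length was 323 bp (151 to 775) and the median summit lay 34.5 bp upstream, with 48 summits outside the gene, 29 in an untranslated exon and 5 in an intron. In the first 0 h library 87.8% of main summits were within 150 bp of a start site, against 63.0% in protein-coding promoter regions. Among 17 other tested member regions, a kind that the promoter set includes, the share was 23.5%. Of the 82, 14 had another protein-coding start within 1 kb. Their median shift at 2 h was −0.45, with 12 of 14 below 0, and that of the other 68 was −0.15, with 46 below 0, a comparison made after the values were seen.

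Sequence words were counted within 100 bp on either side of the 0 h summit, on both strands. The word CCGGAAG or its complement CTTCCGG, the core of ETS factors such as GABP, was in 25 of 82 windows (30.5%) and in 16.1% of promoter windows. AAGATGG or its complement CCATCTT, the YY1 core, was in 7 (8.54%, promoters 5.63%), and GGGCGG or its complement CCGCCC, the SP1 box, in 37 (45.1%, promoters 53.6%). GC content was alike at 60.2% and 62.2% in the median. Pyrimidine runs were read at the annotated protein-coding start nearest to the summit, which can be that of a neighbouring gene, as at Rpl4. A run of at least 6 within 5 bases of that start was found at 33 of 82 main regions (40.2%) and at 19.5% of promoter regions. The median run was 5 bases against 3, and the longest, 17 bases, was at Rpl32. Among 17 other tested member regions 11.8% had such a run of at least 6. CCGGAAG and its complement contain GGAA or TTCC, so they are also counted among the Ikaros words below.

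Ikaros core words were somewhat denser at the main regions than at promoters at large, a description with no test. The main windows held 2.97 ± 1.32 words per 100 bp (SD over 82 windows), promoter windows 2.53 ± 1.24 and all tested windows 2.20 ± 1.18. Windows of the 19 other tested member regions held 2.51 ± 1.27. The excess was in GGAA and TTCC, with 3.41 per window against 2.33 in promoters, and not in GGGA and TCCC, with 2.56 against 2.77. Rpl6 had most, 13 words, and Rps19 and Rps18 had 12. Across the 82 main regions more words went with a lower shift at 2 h, with a Pearson r of −0.33 and a Spearman rho of −0.39, and across 12132 promoter regions both were −0.32. The points share their libraries and base composition, so these are descriptions. The 31 main regions with more than 6 words had a median shift of −0.46 with 26 below 0, and the 51 with 6 or fewer had −0.12 with 32 below 0. The count of words did not set Rpl15 apart, which had 7 in this window, while Rpl6 with 13 had a shift of −0.68 (SE 0.274, limma adjusted p = 0.106) and Rpl7 had 4.

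**Figure D5:**
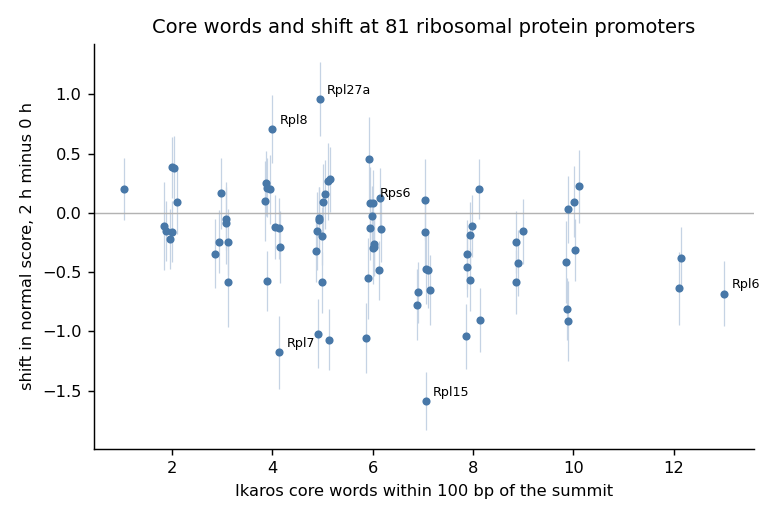
Ikaros core words within 100 bp on either side of the summit (x axis, points spread sideways for legibility) and shift in normal score from 0 h to 2 h (y axis, bars 1 SE from limma) for 81 main regions. Shifts drift downward with the number of words, with wide scatter. Rpl27a (5 words) is the highest at 0.96, Rpl6 with the most words (13) lies at −0.68, and Rpl15, with 7 words, stands below the others drawn.

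Other genes of translation were taken from lists of the same pathway. Their counts at 2 h stand beside the 4.71% of all tested regions called lower and the 2.28% called higher. Of 14 regions of elongation factor genes 1 was called lower, upstream of Eef1d, and the median shift was −0.44. Initiation factors had 1 of 48 called lower, at Eif5, with a median of −0.15. Among 71 regions of ribosome biogenesis genes, 2 were called lower, and the median was −0.07. The called ones were Nop10, a part of box H/ACA particles, with 49 and 34 fragments before 4-OHT against 19 and 14 after 2 h, and Ubtf, a factor of RNA polymerase I, with 14 and 7 against 7 and 6. At 1 h the 2 biogenesis regions called lower were Nop10 and Nop58, a core protein of box C/D particles, which had 76 and 55 fragments before 4-OHT against 29 and 30 (all tested regions: 2.51% lower). The mitochondrial ribosomal protein genes, 76 of 78 with a peak in all lists, had 103 tested regions with 0 called at 2 h and a median of −0.04, and Mrps12 was called lower at 1 h. No region of these lists was called higher at any time.

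Cell identity was checked by marker promoters. Of 8 B lineage markers 6 had a promoter peak in all 8 lists, while of 6 T cell, 5 myeloid, 4 erythroid and 3 hepatocyte markers 0 did. Without a peak in any list were 1 B lineage, 4 T cell, 3 myeloid, 2 erythroid and 3 hepatocyte markers, and the remaining ones had a peak in some lists. Of 11 genes that the study names as repressed by Ikaros, 8 had a promoter peak in all lists and 2 had none. Of 11 tested regions near these genes, 2 were called lower at 2 h (all tested regions: 4.71%). They were at Plekho2, with 65 and 45 fragments before 4-OHT against 15 and 16 after 2 h, and at Bcl11a, with 37 and 26 against 13 and 11. The rule took summits up to 1 kb from a start. Just inside it were Rps15 in the second 30 min library at 1000 bp (percentile 36.7) and Rps24 in the second 1 h library at 995 bp (58.1), and just outside were Rps15 in the first 1 h library at 1001 bp (29.1) and in the first 0 h library at 1003 bp (16.5).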

How the data were processed

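Omni-ATAC libraries of B3 Ikaros-ERt2 cells were compared, 2 at each of 4 times. The authors ran the nf-core ATAC-seq workflow with bwa (0.7.17), shifted ends for the Tn5 offset with deepTools (2.3.5), kept short fragments and called peaks on each library alone, with no control, with MACS2 (2.1.2, per the submitters' processing notes). The deposited lists give per peak a fold over local background (a ratio), its −log10 p-value and −log10 q-value, and the summit. The score column deposited with them, the caller's q-value on a whole-number scale, was not used. The methods text prints a human build, but all peaks lie inside the GRCm38 chromosomes. No list is scaled to another, so ranks within a list were compared.

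Overlapping peaks were merged into regions, and those in all 8 lists were tested with limma (3.58.1, R 4.3.3) on normal scores of their rank by fold, with Benjamini-Hochberg adjustment over 47875 regions and a threshold of 0.01. P-values measure the spread between these libraries, which may be technical. Fragments at the summit were recovered from the deposited fold and −log10 p-value under the caller's Poisson model, which fitted 100% of peaks. Read totals were not used here. The fit was tested on simulated data.

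Members, gene lists and tests were chosen with earlier results of these data known. Genes named are those called, the 5 largest falls, rises, highest and lowest by percentile, those without peaks and a list of well-known members; others with an adjusted p under 0.05 or many core words were named after their values were seen. Some genes that meet these rules are counted but not reported here by name or drawn singly. The study's regulatory analyses of other assays were not analysed here. Alternatives changed the scale, the peak threshold, the model, the overlap rule, the distance and the libraries.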

Additional observations from a re-analysis of the deposited data

How the results depend on the processing

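Across 16 settings the shift of Rpl15 at 2 h ranged from −1.70 to −1.26 and was called in 12. No alternative reversed any of the 13 single-gene shifts. Member regions called lower at 30 min, 1 h and 2 h were 1, 5 and 9 at an adjusted p of 0.05. At 1 h they were 1 with the rank among all peaks (all tested regions: 1.02%) and 4 on the fragment scale (6.63%). At 2 h they were 4 on the fragment scale (all tested regions: 9.37%) and 6 with a mean trend and robust prior (6.83%). With peaks of −log10 q of at least 5 they were 1 at 1 h (3.17%) and 1 at 2 h (5.26%), where 92 member regions could be tested. In regions of at least 2 lists, 1 of 143 was called higher at 1 h (all: 1.33%). The replicate numbers did not pair the libraries (correlations of deviations 0.0172 to 0.0403), and the replicate block gave 1 lower at 1 h (1.88%) and 3 at 2 h (3.98%). With 1 library left out at 0 h, or at the time compared, fewer regions were called at 1 h and 2 h. This held for all tested regions as for the members, and a lone library was assumed to vary like the others. Without 0 h replicate 2 no region of the genome was called.

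Genes with a peak in all lists numbered 80 to 82 over the 11 alternatives tried. The median percentile at 0 h, 30 min, 1 h and 2 h was 91.1, 91.6, 92.0 and 90.8 by −log10 p-value, and 87.4 and 87.9 at 1 h and 2 h in lists of equal length. Without 1 library it was 88.2 to 90.8 at 2 h. The median shift was −0.032, −0.081 and −0.061 at 30 min, 1 h and 2 h by rank among all peaks. Without 1 library it ranged from −0.20 to −0.084 at 30 min and from −0.27 to −0.19 at 2 h. The causes were not tested. The lists give no read totals, 2 libraries a time limit every test, and a weak peak rests on few fragments.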
